A study of Mus musculus with 8 samples.

Results

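The 36 genes described here make up the integrated stress response and the unfolded protein response of the endoplasmic reticulum (ER). They were chosen by name, and each was read from its brightest probe set. All 36 were measured, among 19937 genes with a value, and they fall into an ATF4 arm of 15 genes, a chaperone arm of 17 genes whose promoters ATF6 and XBP1 are known to act on, and 4 genes that sense or transmit the stress. The cells were primary hepatocytes from livers of male mice on the BALB/c background, and 8 whole-transcript gene arrays measured their total RNA. The control group was HO1+/+ with a scrambled shRNA, the HO1 knockout group HO1-/- with the scrambled shRNA, the HO2 knockdown group HO1+/+ with an shRNA against HO2, and the combined group HO1-/- with the HO2 shRNA, with 2 arrays each. HO1 and HO2 are the heme oxygenases, which break heme down to biliverdin, iron and carbon monoxide, and the series asks how carbon monoxide metabolism acts on circadian transcription. Every group, the control included, had been transduced with lentivirus, selected in puromycin over 3 days and pulsed with dexamethasone (1 µM, 30 min), and RNA was taken 28 h after the pulse. A single hairpin stood for the HO2 knockdown. The labels call the 2 arrays of a group biological replicates. They do not say how many animals gave the cells, or whether replicates came from separate animals or cell preparations. The p-values therefore speak only for the spread among these arrays, and cell preparation and genotype cannot be told apart. Over all 8 arrays the mean log2 signals of hepatocyte markers were 13.64 for Alb, 13.19 for Ttr, 12.44 for Hnf4a and 12.24 for Apoa1. These lay at the 97.7 percentile or higher among all genes. Apoa1 averaged 10.9 in control, 11.27 in HO1 knockout, 13.22 in HO2 knockdown and 13.56 in combined arrays. Other markers were dimmer in control arrays (Apoa2 8.14, Plg 7.54, Fabp1 5.76).

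When unfolded proteins collect in the ER, or when amino acids or heme run short, kinases of the translation factor eIF2 slow translation in general, while the mRNA of the transcription factor ATF4 is translated more. ATF4 then raises genes of amino acid supply, of redox balance and, with CHOP, of cell death. The ER sensors IRE1 and ATF6 act in parallel: IRE1 splices the Xbp1 mRNA, ATF6 is cut to release a transcription factor, and both raise chaperones, disulfide isomerases and the machinery that sends misfolded proteins to degradation. Hepatocytes secrete most plasma proteins and hold an extensive ER. Arrays of mRNA show neither eIF2 phosphorylation, nor ATF4 translation, nor Xbp1 splicing.

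Short elements known from each arm were searched in front of the genes and are shown here because the arms are usually told apart by them. RefSeq promoters (GRCm38.p6) were available for 33 of the 36 genes, and the 250 bases before the start were searched on both strands; Atf6, Manf and Hyou1 had no entry. The ER stress response element (ERSE), CCAAT followed by 9 bases and CCACG, stood in 7 of the 15 chaperone-arm genes with a window (46.7%), in 0 of 15 ATF4-arm genes, and in 35 of 27025 genes (0.13%). ER stress response element II (ERSE-II), ATTGG followed by 1 base and CCACG, stood in Herpud1 alone among the 33, and in 10 of all genes (0.037%). The C/EBP-ATF composite element (CARE) TTGCATCA stood in Atf3, Chac1 and Herpud1, and in 248 of all genes (0.918%). That is 2 of 15 ATF4-arm genes (13.3%) and 1 of 15 chaperone-arm genes (6.67%), so this element hardly separated the arms here. The unfolded protein response element TGACGTGG was in none of the 33 windows and in 163 of all genes (0.603%). No element overlapped another in a window printed here. Only exact matches lying wholly inside the 250 bases were counted, so variant sites and sites cut by the start are not in these counts.

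The windows of 5 genes are printed 5′ to 3′ on the gene's strand and end at the base before the start, with matched elements in capitals. They show the single element of Hspa5, the element pair of Hsp90b1, both kinds of element in Herpud1, and the composite element of Atf3 and Chac1. Their positions are chr2:34771840-34772089, forward strand, for Hspa5; chr10:86705445-86705694, reverse strand, for Hsp90b1; chr8:94386179-94386428, forward strand, for Herpud1; chr1:191183334-191183583, reverse strand, for Atf3; and chr2:119350992-119351241, forward strand, for Chac1.
Hspa5: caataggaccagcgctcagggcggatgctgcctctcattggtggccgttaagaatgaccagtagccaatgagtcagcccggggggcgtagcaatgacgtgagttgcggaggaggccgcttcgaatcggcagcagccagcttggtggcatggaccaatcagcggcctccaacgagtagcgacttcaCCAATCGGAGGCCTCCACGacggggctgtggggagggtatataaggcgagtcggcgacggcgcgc
Hsp90b1: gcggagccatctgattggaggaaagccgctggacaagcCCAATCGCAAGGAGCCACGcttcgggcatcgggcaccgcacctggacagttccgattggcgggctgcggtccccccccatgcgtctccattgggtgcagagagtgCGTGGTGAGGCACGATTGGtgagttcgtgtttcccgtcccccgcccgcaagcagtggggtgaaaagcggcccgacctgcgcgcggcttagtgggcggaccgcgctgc
Herpud1: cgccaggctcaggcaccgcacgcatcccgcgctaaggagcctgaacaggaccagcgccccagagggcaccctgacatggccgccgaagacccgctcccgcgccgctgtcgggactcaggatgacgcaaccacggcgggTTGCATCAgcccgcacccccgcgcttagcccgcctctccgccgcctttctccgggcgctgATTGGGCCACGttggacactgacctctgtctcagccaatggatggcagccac
Atf3: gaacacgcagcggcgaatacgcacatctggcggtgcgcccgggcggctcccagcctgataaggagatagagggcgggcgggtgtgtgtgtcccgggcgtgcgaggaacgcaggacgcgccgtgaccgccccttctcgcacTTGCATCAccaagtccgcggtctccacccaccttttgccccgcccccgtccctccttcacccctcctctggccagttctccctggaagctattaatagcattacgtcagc
Chac1: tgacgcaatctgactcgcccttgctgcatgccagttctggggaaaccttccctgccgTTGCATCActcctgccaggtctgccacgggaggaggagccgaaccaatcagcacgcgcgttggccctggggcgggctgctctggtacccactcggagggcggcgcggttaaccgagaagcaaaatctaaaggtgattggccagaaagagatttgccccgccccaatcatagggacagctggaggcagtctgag

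In Hspa5 the element lay 65 to 47 bases before the start, and in Herpud1 element II lay 52 to 42 bases and the composite element 112 to 105 bases before it. Hsp90b1 held a forward copy 212 to 194 bases and a reversed copy 107 to 89 bases before its start. The other genes with an ER stress response element are given by the element alone, to show how the 9 spacer bases vary; in Calr and Creld2 it reads on the opposite strand.
Pdia6: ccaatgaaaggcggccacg
Dnajc3: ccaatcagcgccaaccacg
Canx: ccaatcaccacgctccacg
Calr: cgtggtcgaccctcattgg
Creld2: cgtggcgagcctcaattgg

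**Figure D1:**
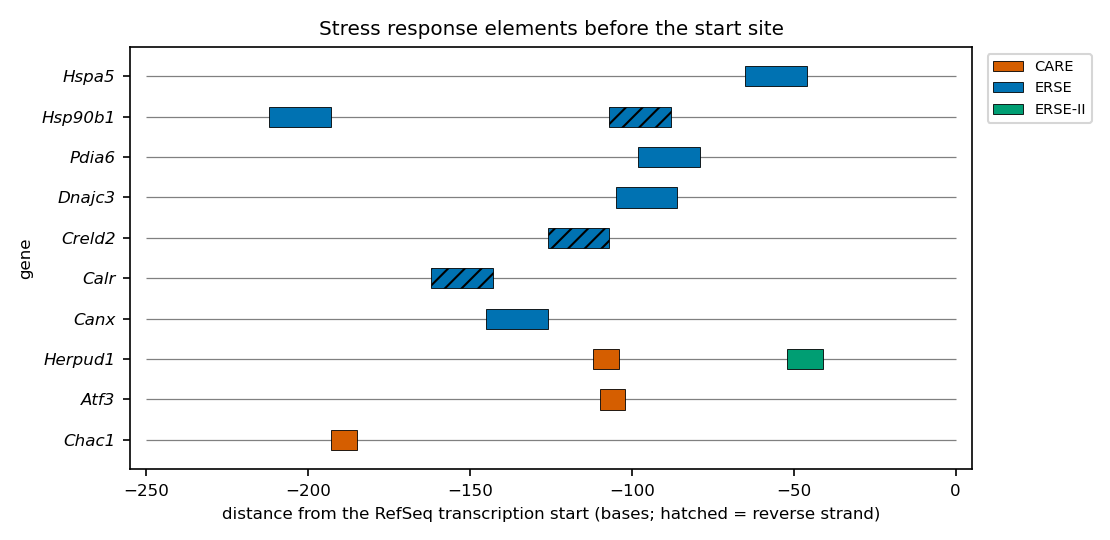
Positions of matched elements in the 250 bases before the start of the member genes that hold one. The horizontal axis is the distance from the start in bases, each row is a gene, and the colour of a bar gives the kind of element (ERSE, ERSE-II or CARE), hatched where it reads on the opposite strand; 7 chaperone-arm genes hold the ER stress response element, and Herpud1 holds element II and the composite element.

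Across the 36 genes the differences were small. No gene was 2-fold apart in any of the 5 pairwise comparisons, the largest difference was 0.81 on the log2 scale, and the standard errors ran from 0.04 to 0.08. A gene was called at an adjusted p under 0.05 in limma, with Benjamini-Hochberg adjustment over all genes. By that rule 31 of the 36 were called in at least 1 of the 6 comparisons. The share of all genes called in at least 1 was not computed, so this count has no background beside it. The arrays' number limits the precision. An array signal can understate the true ratio, and whether it did so here was not measured. All log2 differences below are given with that fit's standard error and rest on 2 arrays a group.

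In HO1 knockout against control, 10 of the 36 genes were higher and 1 lower. Over all genes 12.8% were called, 5.62% higher and 7.20% lower. In HO2 knockdown against control 16 were higher and 3 lower, where 33.2% of all genes were called, 16.5% higher and 16.7% lower. The combined group against control gave the highest count, 22 higher and 3 lower, where 29.9% of all genes were called, 11.6% higher and 18.3% lower. Within HO1-/- cells, combined against HO1 knockout, 11 were higher and 4 lower, beside 23.0% of all genes called, 10.2% higher and 12.8% lower. Combined against HO2 knockdown, the genotype difference under the HO2 shRNA, gave 9 higher and 7 lower, beside 34.0%, 13.0% and 21.0%. In the interaction, which is the HO2 shRNA effect in HO1-/- cells minus that in HO1+/+ cells, 1 gene was higher and 5 lower, beside 12.2%, 4.67% and 7.57%. The direction of calls depended on how arrays were scaled: with each array centred on its median, 62.9% of all calls in HO2 knockdown were higher in place of 49.7%, 24.1% in place of 38.2% in combined against HO2 knockdown, and 27.1% in place of 38.2% in the interaction. The 36 genes then gave 17 higher and 0 lower, 7 and 9, and 0 and 6. After quantile normalization they gave 14 higher and 4 lower, 15 and 2, and 2 and 3, so neither the split in combined against HO2 knockdown nor that in the interaction is settled. The 11 calls in HO1 knockout fell to between 4 and 7 without the mean-variance trend, with array weights, with centred arrays, with only the groups compared or at a threshold of 0.01, and to 5 without control array 2 or either HO1 knockout array. Without combined array 1 combined against HO1 knockout gave 9 calls in place of 15, and the interaction gave 3 in place of 6 without that array or control array 1.

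These genes are bright, with mean log2 signals of 8.79 to 13.19, and 27 of them lie above the 75th percentile. Bright genes were called more often. A second background, chosen after the data were seen, takes this into account in part. Among the 8150 genes at least as bright as the dimmest of the 36, 20.7%, 53.4%, 50.4%, 40.6%, 51.6% and 21.4% were called in the 6 comparisons in the order above. Against that background the share of the 36 that was called was 30.6%, 52.8%, 69.4%, 41.7%, 44.4% and 16.7%. Of the bright genes 7.95% were higher in HO1 knockout, 31.5% in HO2 knockdown and 18.0% in combined, each against control. The share called in combined against control lay above that background, and 22 of the 25 called genes were higher. The shares in HO2 knockdown and in combined against HO1 knockout lay near it. Those in combined against HO2 knockdown and in the interaction lay below it. These comparisons are of all calls, and the directions were split otherwise. In HO2 knockdown 16 of the 36 were higher and 3 lower, beside 31.5% and 22.0% of the bright genes. In combined against HO1 knockout 11 and 4 stood beside 17.6% and 23.1%. In combined against HO2 knockdown 9 and 7 stood beside 11.2% and 40.4%, and in the interaction 1 and 5 beside 5.85% and 15.6%. The share in HO1 knockout lay above it with the 11 calls, and the background was not computed for the settings with fewer calls. The genes of this background were not matched to the 36 on brightness. Comparisons with the same control or combined arrays share their error, so their counts are not independent.

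**Figure D2:**
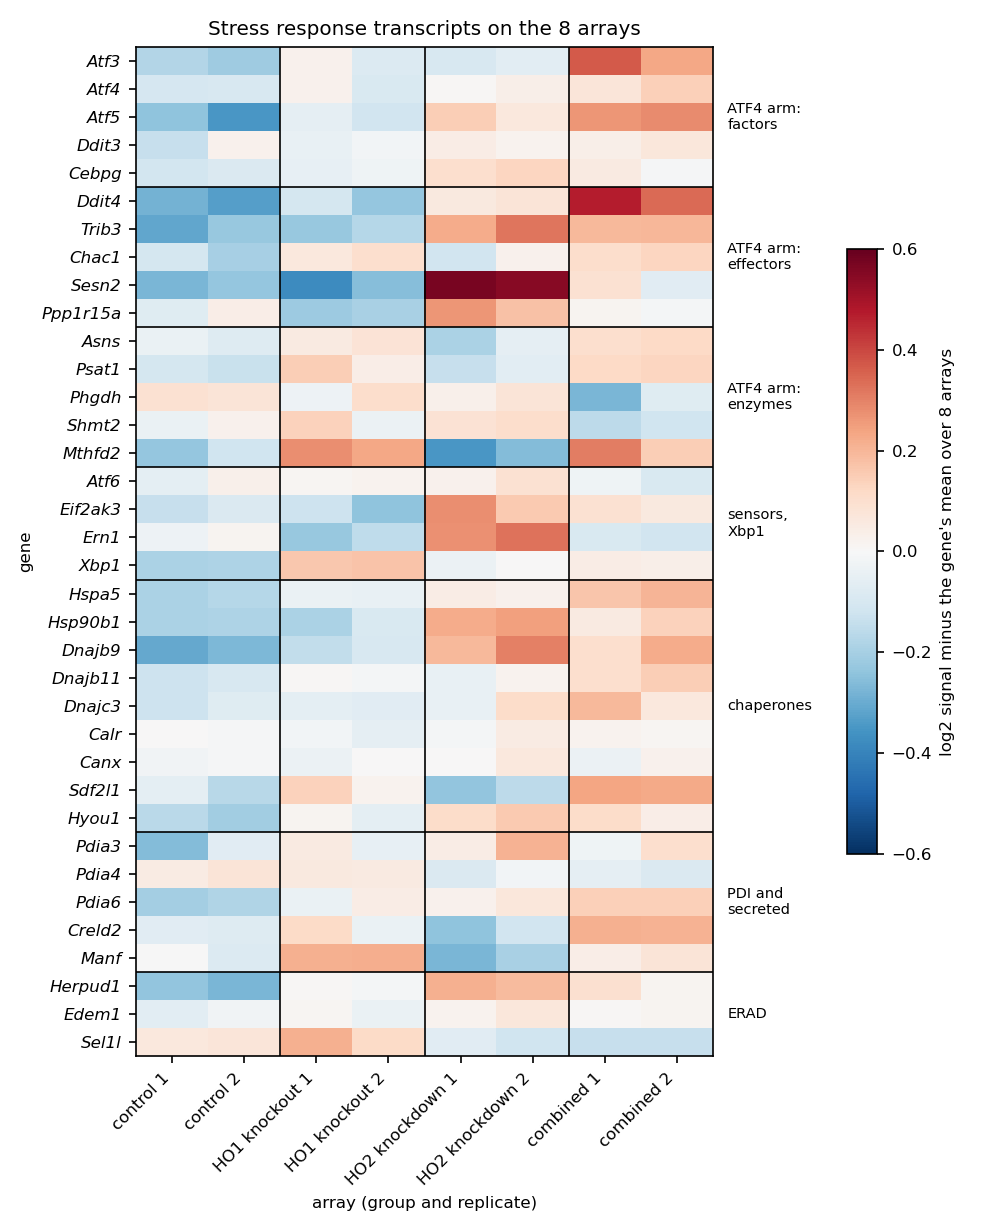
Log2 signal of the 36 genes on the 8 arrays, each minus the gene's mean over all arrays, with genes in rows grouped by role and arrays in columns grouped by treatment; the colour scale runs from -0.6 to 0.6. Trib3 and Ddit4 read above their means on the HO2 knockdown and combined arrays, and Mthfd2 on the HO1 knockout and combined arrays. Sesn2 reads highest on the HO2 knockdown arrays.

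Among whole-series facts that touch these results, replicate arrays correlated at 0.997 to 0.999 and arrays of different groups at 0.975 to 0.989 over all genes. Hmox2 averaged 11.49 in control, 11.60 in HO1 knockout, 8.35 in HO2 knockdown and 9.29 in combined arrays. Hmox1 averaged 11.43, 11.97, 11.55 and 12.44 in the same order, so it was not lower on the arrays labelled HO1-/-. The files used here do not say whether its probe set lies in the deleted part, and every genotype difference below therefore rests on the labels.

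Lists that mark other cells and states also differed between the groups. Of 20 macrophage and Kupffer cell markers, 15 were higher and 1 lower in HO1 knockout and 14 and 1 in combined against control, with medians of 2.05 and 2.18. Their summed signal, on the log2 scale, was 13.15 to 13.21 in control, 15.32 to 15.34 in HO1 knockout, 12.93 to 12.98 in HO2 knockdown and 15.30 to 15.39 in combined arrays, with Cd5l, Timd4 and Cd163 under the 25th percentile of all genes. Of 16 hepatocyte markers, 15 were higher and 1 lower in HO2 knockdown and in combined, and 10 and 1 in HO1 knockout, with medians of 2.35, 2.11 and 0.29. Their summed signal was 15.30 to 15.32 in control, 15.52 to 15.54 in HO1 knockout, 16.41 to 16.46 in HO2 knockdown and 16.52 to 16.54 in combined arrays, with Cyp2e1 under the 25th percentile. All 19 cell cycle genes were lower in HO2 knockdown and in combined than in control, with medians of -1.28 and -0.81. In bulk RNA, fewer cells of a type and less RNA per cell cannot be told apart. The part of these shifts in the values of the 36 genes was not tested.

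Of the 5 transcription factors of the ATF4 arm, 3 were higher in combined than in control and none was called in HO1 knockout. Atf4, the mRNA of the arm's central factor, read 9.59 and 9.59 in control, 9.72 and 9.60 in HO1 knockout, 9.70 and 9.72 in HO2 knockdown, and 9.76 and 9.83 in combined arrays. Its combined arrays were the highest and its control arrays the lowest. Combined differed from control by 0.20 ± 0.07 (adjusted p = 0.0281), a call that was lost when any 1 control or combined array was left out, with 0.07 in HO1 knockout and 0.12 in HO2 knockdown not called. Ddit3, which encodes CHOP, read 9.02 and 9.18 in control, 9.12 and 9.14 in HO1 knockout, 9.20 and 9.18 in HO2 knockdown, and 9.20 and 9.22 in combined arrays. Its groups overlapped in 3 of the 5 pairwise comparisons and none was called; for combined against control the difference was 0.11, with a 95% interval of -0.05 to 0.27.

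Atf3, an early stress factor that ATF4 raises and whose window holds the composite element, read 10.07 and 10.03 in control, 10.27 and 10.16 in HO1 knockout, 10.15 and 10.18 in HO2 knockdown, and 10.61 and 10.47 in combined arrays. Only the combined arrays stood well apart, above every other array. Combined exceeded control by 0.49 ± 0.06 (adjusted p = 1.84e-05), HO1 knockout by 0.33 ± 0.06 (adjusted p = 0.00126) and HO2 knockdown by 0.38 ± 0.06 (adjusted p = 0.000349). Each single treatment was small and not called, 0.17 for HO1 knockout and 0.12 for HO2 knockdown against control, and the interaction of 0.21 ± 0.09 (adjusted p = 0.144) was not called either, so the excess over the sum of both did not pass the test. Atf5, an ATF4-related factor that acts on mitochondrial and ER stress genes, read 9.05 and 8.93 in control, 9.23 and 9.17 in HO1 knockout, 9.43 and 9.35 in HO2 knockdown, and 9.55 and 9.57 in combined arrays. It stepped upward from control through HO1 knockout and HO2 knockdown to combined, with no overlap between neighbouring groups. HO2 knockdown exceeded control by 0.40 ± 0.07 (adjusted p = 0.000404) and combined exceeded control by 0.57 ± 0.07 (adjusted p = 1.26e-05), or 1.49-fold, while 0.21 in HO1 knockout was not called (adjusted p = 0.0707). Within HO1-/- cells the HO2 shRNA difference was 0.36 ± 0.07 (adjusted p = 0.00139). Cebpg, a C/EBP factor that pairs with ATF4, read 9.71 and 9.73 in control, 9.77 and 9.79 in HO1 knockout, 9.92 and 9.95 in HO2 knockdown, and 9.87 and 9.81 in combined arrays. Its HO2 knockdown arrays were the highest, 0.21 ± 0.06 (adjusted p = 0.0139) above control, a call lost without control array 1 or either HO2 knockdown array.

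Of the 5 effectors of the arm, 4 were higher in HO2 knockdown and 4 in combined than in control, and 1 was higher in HO1 knockout. Sesn2, which encodes sestrin 2, a leucine sensor that restrains mTORC1, read 10.12 and 10.16 in control, 10.02 and 10.14 in HO1 knockout, 10.97 and 10.94 in HO2 knockdown, and 10.49 and 10.33 in combined arrays. The HO2 knockdown arrays were far above the others and the combined arrays lay between them and the control arrays. Its rise in HO2 knockdown, 0.81 ± 0.07 (adjusted p = 1.07e-07) or 1.75-fold, was the largest among the 36 genes in any comparison. Under the same hairpin in HO1-/- cells the difference was 0.33 ± 0.07 (adjusted p = 0.00128), and combined lay -0.55 ± 0.07 (adjusted p = 1.34e-05) from HO2 knockdown. The interaction was -0.48 ± 0.09 (adjusted p = 0.00319). Combined still exceeded control by 0.27 ± 0.07 (adjusted p = 0.00514), a call lost without combined array 1.

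Trib3, a pseudokinase that binds AKT and ATF4, read 8.48 and 8.56 in control, 8.56 and 8.62 in HO1 knockout, 9.01 and 9.11 in HO2 knockdown, and 8.99 and 8.99 in combined arrays. All 4 arrays with the HO2 shRNA lay above all 4 with the scrambled shRNA. HO2 knockdown exceeded control by 0.54 ± 0.08 (adjusted p = 4.87e-05), and combined exceeded HO1 knockout by 0.40 ± 0.08 (adjusted p = 0.0011), with an interaction of -0.14 that was not called (95% interval -0.38 to 0.09). Ddit4, which encodes REDD1, an inhibitor of mTORC1 that is also raised by glucocorticoids and hypoxia, read 9.71 and 9.67 in control, 9.90 and 9.77 in HO1 knockout, 10.06 and 10.08 in HO2 knockdown, and 10.47 and 10.34 in combined arrays. Combined arrays were the highest and HO2 knockdown arrays next. It rose by 0.37 ± 0.07 (adjusted p = 0.000418) in HO2 knockdown and by 0.71 ± 0.07 (adjusted p = 4.93e-07) in combined against control, or 1.64-fold, and by 0.57 ± 0.07 (adjusted p = 8.86e-06) within HO1-/- cells. Combined also exceeded HO2 knockdown by 0.34 ± 0.07 (adjusted p = 0.00122), while the interaction of 0.20 ± 0.10 (adjusted p = 0.186) did not pass.

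Chac1, which degrades glutathione and whose window holds the composite element, was higher in combined than in control by 0.27 ± 0.07 (adjusted p = 0.00952) and in HO1 knockout by 0.24 ± 0.07 (adjusted p = 0.0448). The first call was lost without control array 2 or combined array 2, the second without control array 2 or any array of the HO1-/- groups. Ppp1r15a encodes GADD34, the subunit that directs dephosphorylation of eIF2. It was higher in HO2 knockdown than in control by 0.24 ± 0.07 (adjusted p = 0.0217) and lower in combined than in HO2 knockdown, -0.22 ± 0.07 (adjusted p = 0.0343). Those calls were lost without control array 1 or HO2 knockdown array 1, and without any 1 HO2 knockdown or combined array, respectively.

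**Figure D3:**
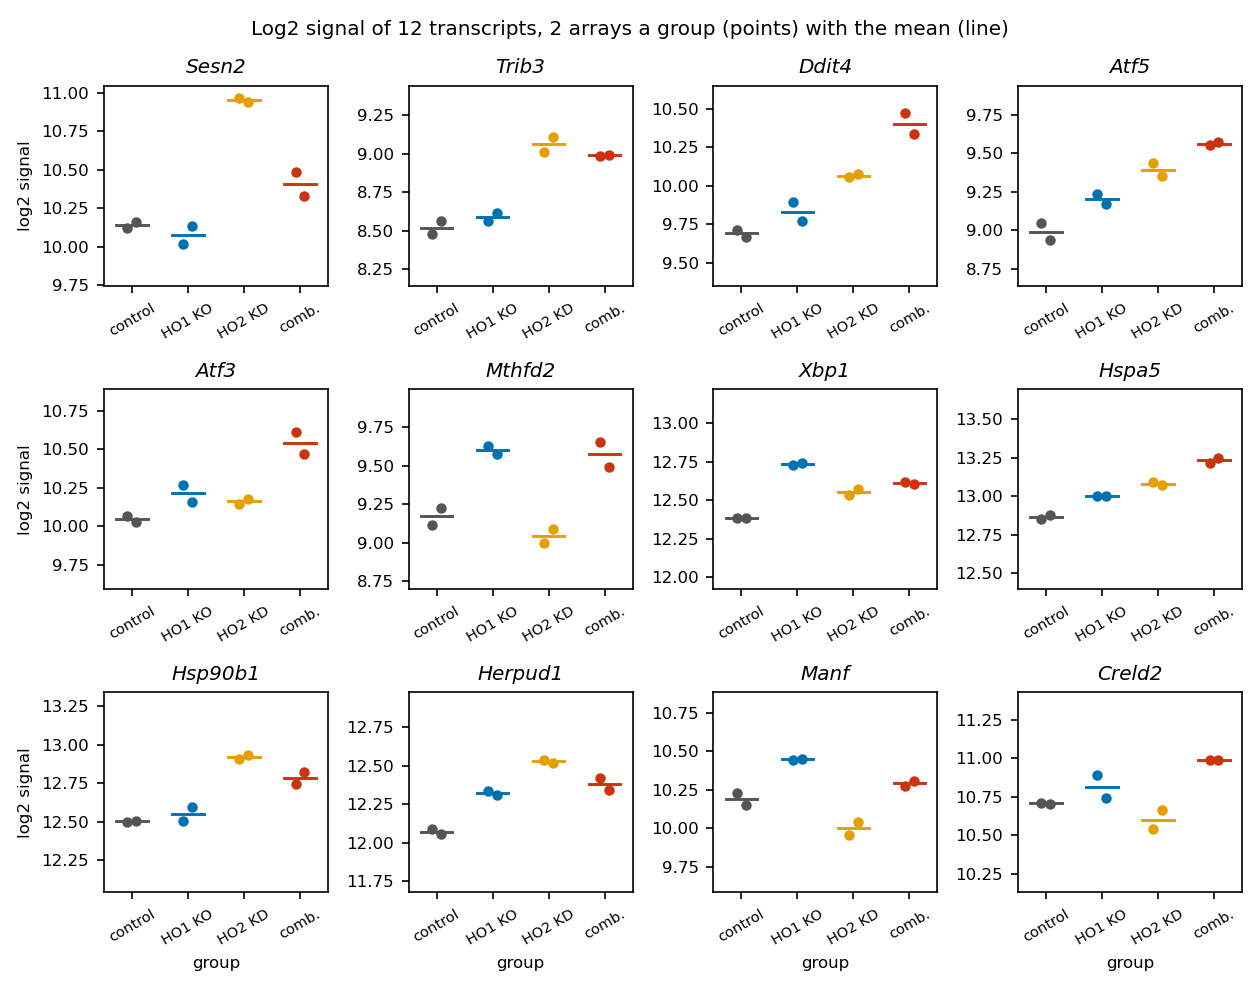
Log2 signal of 12 genes on each array, 1 panel a gene, with a dot per array and the 4 groups along the horizontal axis. Sesn2 is highest in HO2 knockdown (10.94 and 10.97), Ddit4 in combined (10.34 and 10.47), and Mthfd2 is higher in both HO1-/- groups than in both HO1+/+ groups.

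Of the 5 enzymes of amino acid and one-carbon metabolism, none was called in HO2 knockdown, 2 were higher in HO1 knockout, and 3 were higher and 1 lower in combined, each against control. Mthfd2, the mitochondrial methylene-tetrahydrofolate dehydrogenase, read 9.12 and 9.23 in control, 9.63 and 9.58 in HO1 knockout, 8.998 and 9.09 in HO2 knockdown, and 9.66 and 9.49 in combined arrays. All 4 HO1-/- arrays lay above all 4 HO1+/+ arrays. HO1 knockout exceeded control by 0.43 ± 0.08 (adjusted p = 0.000997), and combined exceeded HO2 knockdown by 0.53 ± 0.08 (adjusted p = 8.18e-05). The HO2 shRNA difference was -0.13 in HO1+/+ cells and -0.03 in HO1-/- cells, neither called, with 95% intervals of -0.29 to 0.04 and -0.19 to 0.14. Psat1, the aminotransferase of serine synthesis, read 10.53 and 10.50 in control, 10.78 and 10.68 in HO1 knockout, 10.50 and 10.57 in HO2 knockdown, and 10.75 and 10.76 in combined arrays. Its HO1-/- arrays also lay above its HO1+/+ arrays, by 0.22 ± 0.06 (adjusted p = 0.0191) under the scrambled and 0.22 ± 0.06 (adjusted p = 0.00678) under the HO2 shRNA. The first call was lost without control array 2 or HO1 knockout array 1, the second without HO2 knockdown array 1 or combined array 2, while 0.25 ± 0.06 (adjusted p = 0.00335) for combined against control was kept in each of these.

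Asns, which makes asparagine and is a standard ATF4 target, read 11.91 and 11.88 in control, 12.01 and 12.03 in HO1 knockout, 11.77 and 11.90 in HO2 knockdown, and 12.05 and 12.07 in combined arrays. Again the HO1-/- arrays were the upper 4. The genotype difference was 0.23 ± 0.05 (adjusted p = 0.00204) under the HO2 shRNA, and 0.13 ± 0.05 (adjusted p = 0.114), not called, under the scrambled one. Combined exceeded control by 0.17 ± 0.05 (adjusted p = 0.0147), a call lost without control array 2 or either combined array. The remaining 2 enzymes were lower in the combined group. Phgdh, the first enzyme of serine synthesis, was lower in combined than in control, -0.26 ± 0.08 (adjusted p = 0.0257), and than in HO2 knockdown, -0.23 ± 0.08 (adjusted p = 0.044). Shmt2, the mitochondrial serine hydroxymethyltransferase, was lower in combined than in HO2 knockdown, -0.23 ± 0.06 (adjusted p = 0.00661), and than in HO1 knockout, -0.19 ± 0.06 (adjusted p = 0.0295), and its interaction was -0.29 ± 0.08 (adjusted p = 0.034). Both genes lost calls without combined array 1: all 5 of these values were then not called. Some of them were also lost without other arrays of the groups compared. Phgdh and Psat1, which act one after the other in serine synthesis, thus went opposite ways in combined against control.

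The 4 sensing and transmitting genes gave 3 higher in HO2 knockdown, 1 higher and 1 lower in HO1 knockout, and 1 higher in combined, each against control. Xbp1 read 12.38 and 12.39 in control, 12.73 and 12.74 in HO1 knockout, 12.54 and 12.57 in HO2 knockdown, and 12.62 and 12.61 in combined arrays. Control arrays were the lowest and HO1 knockout arrays the highest. HO1 knockout exceeded control by 0.35 ± 0.04 (adjusted p = 6.6e-06), HO2 knockdown did by 0.17 ± 0.04 (adjusted p = 0.00261), and combined did by 0.23 ± 0.04 (adjusted p = 0.000205). Combined lay below HO1 knockout, -0.12 ± 0.04 (adjusted p = 0.0287), a call lost without any 1 array of those groups, and the interaction was -0.29 ± 0.05 (adjusted p = 0.00237). Without the mean-variance trend the HO2 knockdown and interaction calls were lost. The hairpin thus went with more Xbp1 signal in HO1+/+ cells and with less in HO1-/- cells. The array does not separate spliced from unspliced Xbp1.

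Ern1, which encodes IRE1, read 10.60 and 10.66 in control, 10.41 and 10.49 in HO1 knockout, 10.91 and 10.96 in HO2 knockdown, and 10.55 and 10.52 in combined arrays. The HO2 knockdown arrays alone stood above control, by 0.31 ± 0.06 (adjusted p = 0.000414), and combined lay -0.40 ± 0.06 (adjusted p = 4.71e-05) from them. The lower value in HO1 knockout, -0.18 ± 0.06 (adjusted p = 0.0407), was lost when any array other than control array 1 was left out. Xbp1 and the kinase that splices its mRNA therefore had opposite signs in HO1 knockout against control, with Xbp1 kept in every such fit. Eif2ak3, which encodes PERK, the ER-resident eIF2 kinase, read 9.56 and 9.62 in control, 9.58 and 9.46 in HO1 knockout, 9.98 and 9.86 in HO2 knockdown, and 9.79 and 9.76 in combined arrays. Both HO2 shRNA groups lay above both scrambled groups, by 0.33 ± 0.07 (adjusted p = 0.00147) in HO1+/+ and 0.26 ± 0.07 (adjusted p = 0.0125) in HO1-/- cells. The second call was lost without HO1 knockout array 2 or either combined array. Atf6 was called nowhere: against control the differences were 0.03, 0.07 and -0.04 in HO1 knockout, HO2 knockdown and combined.

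Of the 9 chaperones and cochaperones of the ER lumen and membrane, 7 were higher in combined than in control, 4 in HO2 knockdown and 3 in HO1 knockout, and none was lower. Hspa5 encodes BiP, the lumenal chaperone that also holds the sensors inactive, and its window carries the element printed above. It read 12.85 and 12.88 in control, 13.01 and 13.00 in HO1 knockout, 13.09 and 13.07 in HO2 knockdown, and 13.22 and 13.25 in combined arrays. The groups stepped upward with no overlap, from control to HO1 knockout to HO2 knockdown to combined. Against control the differences were 0.14 ± 0.04 (adjusted p = 0.0171), 0.22 ± 0.04 (adjusted p = 0.00022) and 0.37 ± 0.04 (adjusted p = 7.88e-07), the last being 1.29-fold. The HO1 knockout call was lost without any 1 control or HO1 knockout array. The combined value differed from the sum of both by 0.01, with a 95% interval of -0.10 to 0.12. Combined also exceeded HO1 knockout by 0.23 ± 0.04 (adjusted p = 0.000176) and HO2 knockdown by 0.15 ± 0.04 (adjusted p = 0.00444), the latter lost without combined array 2.

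Hsp90b1, which encodes the lumenal HSP90 family member GRP94 and holds 2 elements, read 12.50 and 12.51 in control, 12.50 and 12.60 in HO1 knockout, 12.91 and 12.94 in HO2 knockdown, and 12.74 and 12.83 in combined arrays. HO2 knockdown was the highest group, 0.42 ± 0.04 (adjusted p = 1.73e-06) above control, and combined was next, 0.28 ± 0.04 (adjusted p = 0.000101) above it. HO1 knockout was not called, 0.05, and combined lay below HO2 knockdown by a margin, -0.14 ± 0.04 (adjusted p = 0.0237), that was lost without combined array 1 or either HO2 knockdown array. Dnajb9, a BiP cochaperone that represses IRE1, read 11.66 and 11.69 in control, 11.81 and 11.87 in HO1 knockout, 12.16 and 12.27 in HO2 knockdown, and 12.06 and 12.18 in combined arrays. All 4 HO2 shRNA arrays lay above all 4 scrambled arrays. HO2 knockdown exceeded control by 0.54 ± 0.05 (adjusted p = 8.73e-07) and combined exceeded HO1 knockout by 0.28 ± 0.05 (adjusted p = 0.000712). The interaction, -0.25 ± 0.07 (adjusted p = 0.0374), and the HO1 knockout difference, 0.17 ± 0.05 (adjusted p = 0.0492), were called but were lost without most single arrays of the groups compared.

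Among the others, Hyou1, an exchange factor for BiP, was higher in HO2 knockdown by 0.32 ± 0.06 (adjusted p = 0.000499) and in combined by 0.26 ± 0.06 (adjusted p = 0.00254). Sdf2l1, a partner of lumenal DNAJ proteins, did not pass in HO2 knockdown, -0.09, but exceeded control by 0.34 ± 0.05 (adjusted p = 0.000136) in combined, where it also exceeded HO2 knockdown by 0.43 ± 0.05 (adjusted p = 2.52e-05). Its HO1 knockout difference of 0.19 ± 0.05 (adjusted p = 0.0316) was lost without control array 2, HO1 knockout array 1 or either combined array. Dnajb11 and Dnajc3, both BiP cochaperones, were higher in combined than in control, by 0.23 ± 0.06 (adjusted p = 0.00671) and 0.23 ± 0.06 (adjusted p = 0.0105). Dnajb11 lost that call without combined array 2, and Dnajc3 without control array 1 or combined array 1. Dnajc3 also exceeded HO1 knockout, by 0.19 ± 0.06 (adjusted p = 0.0354), a call lost without combined array 1 or either HO1 knockout array. The lectin chaperones Calr and Canx, which carry the same element as Hspa5, were called in no comparison. For combined against control the 95% intervals were -0.06 to 0.10 for Calr and -0.08 to 0.09 for Canx.

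By the main fit the 5 disulfide isomerases and secreted ER proteins did not go one way: 2 were higher and 2 lower in HO2 knockdown, 2 higher in HO1 knockout, and 3 higher and 1 lower in combined. The 2 lower calls in HO2 knockdown, of Manf and Pdia4, were lost with centred arrays, without the mean-variance trend and at a threshold of 0.01. The 1 lower in combined was Pdia4, whose probe sets disagree. Pdia6, an isomerase that acts on the ER sensors, read 11.22 and 11.25 in control, 11.39 and 11.47 in HO1 knockout, 11.45 and 11.49 in HO2 knockdown, and 11.57 and 11.57 in combined arrays. Its control arrays were the lowest and its combined arrays the highest. Against control, HO2 knockdown differed by 0.24 ± 0.05 (adjusted p = 0.00124) and combined by 0.34 ± 0.05 (adjusted p = 4.87e-05). The HO1 knockout difference, 0.19 ± 0.05 (adjusted p = 0.013), was lost without control array 1 or HO1 knockout array 2, and that of combined from HO1 knockout, 0.14 ± 0.05 (adjusted p = 0.046), was lost without most single arrays.

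Creld2, a secreted ER stress protein, read 10.71 and 10.70 in control, 10.89 and 10.74 in HO1 knockout, 10.54 and 10.66 in HO2 knockdown, and 10.99 and 10.99 in combined arrays. Combined arrays were the highest and HO2 knockdown arrays the lowest. Combined exceeded control by 0.28 ± 0.06 (adjusted p = 0.00203) and HO2 knockdown by 0.39 ± 0.06 (adjusted p = 0.000186), while the HO2 knockdown difference of -0.11 from control was not called. The interaction was 0.28 ± 0.09 (adjusted p = 0.0477), the only one above 0 among the called interactions, and it was lost without control array 1, HO1 knockout array 2, HO2 knockdown array 1 or either combined array. Manf, a secreted ER protein that binds BiP, read 10.23 and 10.15 in control, 10.44 and 10.45 in HO1 knockout, 9.96 and 10.04 in HO2 knockdown, and 10.27 and 10.31 in combined arrays. It was the lowest in HO2 knockdown and the highest in HO1 knockout. HO1 knockout exceeded control by 0.26 ± 0.06 (adjusted p = 0.00791), a call lost without control array 2 or HO1 knockout array 2. HO2 knockdown lay -0.19 ± 0.06 (adjusted p = 0.0219) from control, lost without control array 1 or HO2 knockdown array 1. Under the HO2 shRNA the genotype difference was 0.29 ± 0.06 (adjusted p = 0.00145), kept without each array in turn.

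Pdia3, an isomerase for glycoproteins, was higher in HO2 knockdown by 0.29 ± 0.07 (adjusted p = 0.00243), a call lost without HO2 knockdown array 2, and in combined by 0.20 ± 0.07 (adjusted p = 0.0284), lost without control array 1 or combined array 2. Pdia4, a further lumenal isomerase, has 2 probe sets that disagree. The brighter, with a mean log2 signal of 12.55, gave -0.12 ± 0.04 (adjusted p = 0.039) in HO2 knockdown and -0.13 ± 0.04 (adjusted p = 0.0196) in combined against control, both lost without several single arrays. The dimmer, with a mean of 7.06, gave 0.41 and 0.60. The direction of Pdia4 is therefore not settled by these arrays.

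The 3 genes of ER-associated degradation split. Herpud1, a membrane adaptor of the ubiquitin ligase complex with both kinds of element in its window, read 12.09 and 12.05 in control, 12.33 and 12.31 in HO1 knockout, 12.54 and 12.52 in HO2 knockdown, and 12.42 and 12.34 in combined arrays. Control arrays were the lowest and HO2 knockdown arrays the highest. It rose in each group against control, by 0.25 ± 0.04 (adjusted p = 0.000659), 0.46 ± 0.04 (adjusted p = 5.5e-07) and 0.31 ± 0.04 (adjusted p = 3.06e-05) in HO1 knockout, HO2 knockdown and combined. The interaction was -0.40 ± 0.06 (adjusted p = 0.000521), and within HO1-/- cells the hairpin difference was 0.06 and not called. Combined lay -0.15 ± 0.04 (adjusted p = 0.0156) from HO2 knockdown, lost without HO2 knockdown array 1 or combined array 2. Sel1l, the scaffold of the same ligase complex, read 11.12 and 11.13 in control, 11.27 and 11.17 in HO1 knockout, 10.99 and 10.94 in HO2 knockdown, and 10.92 and 10.92 in combined arrays. The 4 HO2 shRNA arrays were the lowest. Combined lay -0.21 ± 0.05 (adjusted p = 0.0059) from control and -0.30 ± 0.05 (adjusted p = 0.000392) from HO1 knockout, and HO2 knockdown lay -0.16 ± 0.05 (adjusted p = 0.0256) from control, the last being lost without any 1 array of its groups. The HO2 knockdown call was also lost with centred arrays and without the mean-variance trend. Edem1, a lectin that extracts misfolded glycoproteins, read 11.77 and 11.82 in control, 11.85 and 11.79 in HO1 knockout, 11.85 and 11.90 in HO2 knockdown, and 11.84 and 11.85 in combined arrays. It was called in no comparison, and its combined difference from control was 0.05, with a 95% interval of -0.04 to 0.15.

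**Figure D4:**
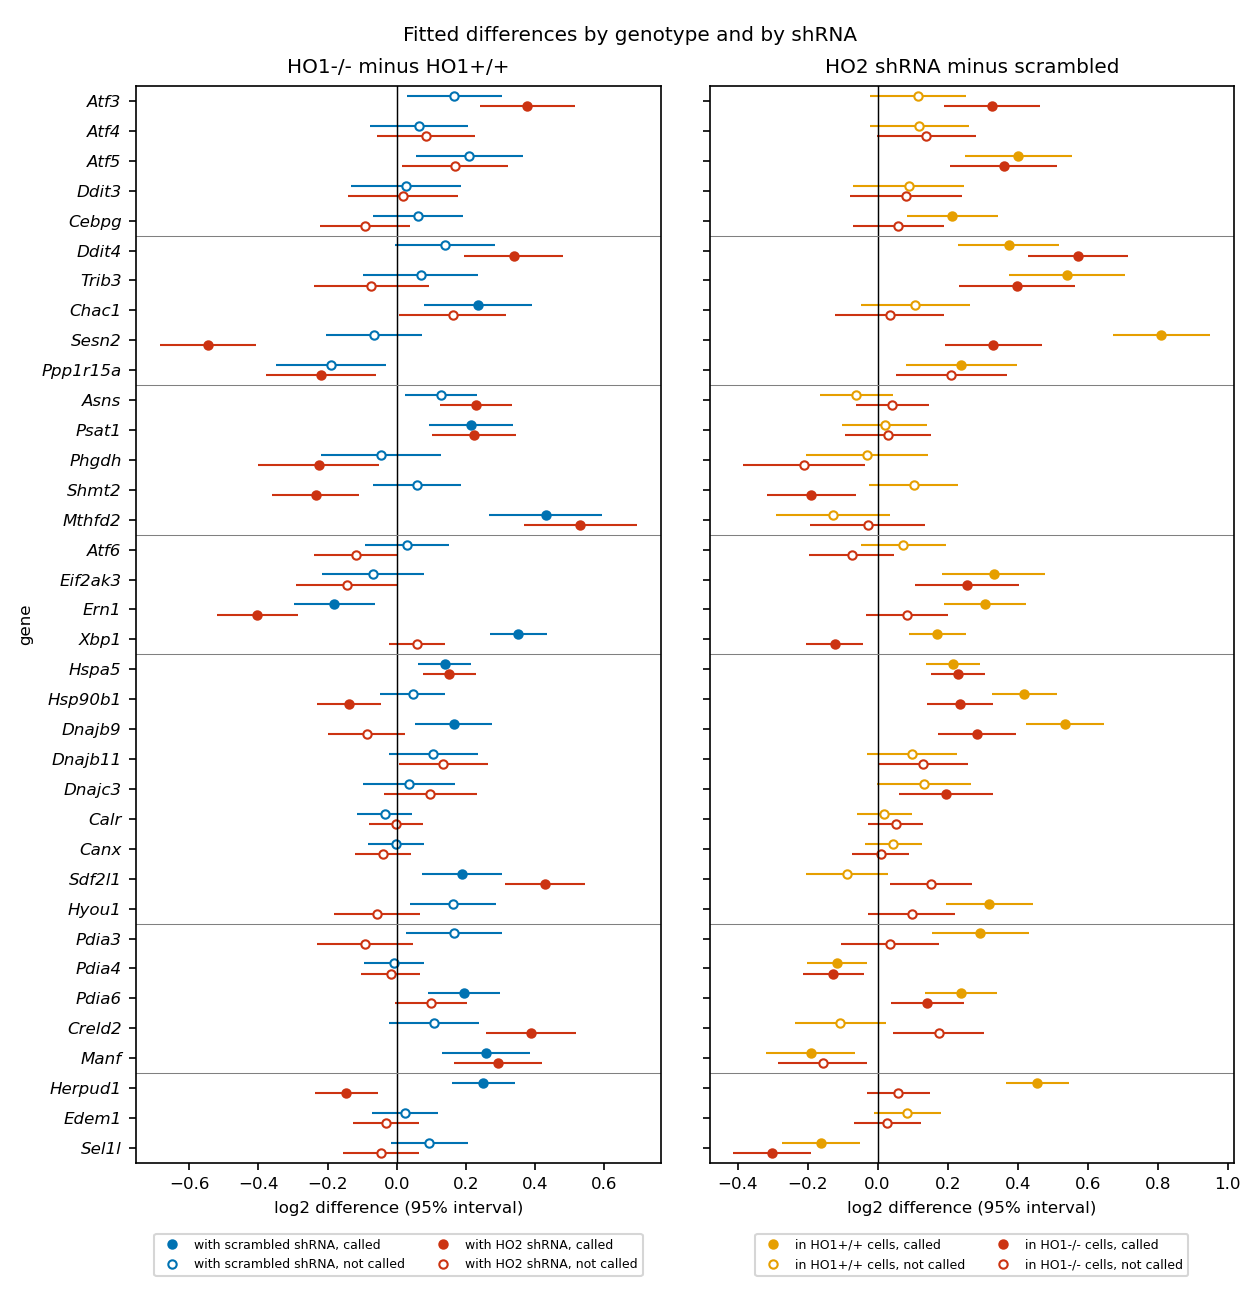
Log2 differences of the 36 genes with 95% intervals from limma, genes in rows by role. One panel shows the genotype difference under each shRNA and the other the HO2 shRNA difference in each genotype; Sesn2 differs by 0.81 for the hairpin in HO1+/+ cells and by 0.33 in HO1-/- cells, and Mthfd2 by 0.43 and 0.53 for the genotype.

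Set side by side, both arms had positive medians of the log2 difference against control in all 3 groups, under each scaling tried. The ATF4 arm had medians of 0.07 in HO1 knockout, 0.12 in HO2 knockdown and 0.25 in combined, with 3, 6 and 10 of 15 genes higher and 0, 0 and 1 lower. The chaperone arm had 0.11, 0.10 and 0.23, with 6, 7 and 11 of 17 higher and 0, 3 and 2 lower. Over all genes the medians were -0.04, -0.07 and -0.02, and over the 8150 genes at least as bright as the dimmest of the 36 they were -0.05, 0.04 and -0.07. The chaperone arm's 3 lower calls in HO2 knockdown were lost with centred arrays and without the mean-variance trend, and 1 of them is Pdia4, whose probe sets disagree. The arm's median in HO2 knockdown was 0.028 after quantile normalization, 0.152 with centred arrays and 0.060 without HO2 knockdown array 2. For the ATF4 arm that median was 0.065 after quantile normalization, and its median in HO1 knockout was 0.124 without HO1 knockout array 2. The arms were not tested against each other. In combined against HO2 knockdown the medians were 0.09 for the ATF4 arm and -0.02 for the chaperone arm, and both change sign or size with the scaling of the arrays, as given with the alternatives. In combined against HO1 knockout they were 0.08 and 0.10, the second being 0.059 without HO1 knockout array 2.

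The level of an arm on an array, taken as the median over its genes of the log2 signal minus each gene's mean over arrays, placed the control arrays lowest in both arms. For the ATF4 arm it was -0.11 and -0.12 in control, -0.03 and -0.04 in HO1 knockout, 0.04 and 0.06 in HO2 knockdown, and 0.10 and 0.13 in combined arrays. For the chaperone arm it was -0.12 and -0.08, 0.01 and -0.04, 0.00 and 0.06, and 0.10 and 0.08. The groups of the ATF4 arm did not overlap, whereas HO1 knockout and HO2 knockdown overlapped in the chaperone arm. Inside the ATF4 arm the roles diverged. The effectors stood at -0.27 and -0.23 in control, -0.22 and -0.20 in HO1 knockout, 0.22 and 0.18 in HO2 knockdown and 0.10 and 0.13 in combined. The enzymes stood at -0.04 and -0.08, 0.14 and 0.08, -0.14 and -0.05, and 0.10 and 0.12. These are medians, and single genes departed from them: Chac1 and Ppp1r15a among the effectors, and Phgdh and Shmt2 among the enzymes.

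**Figure D5:**
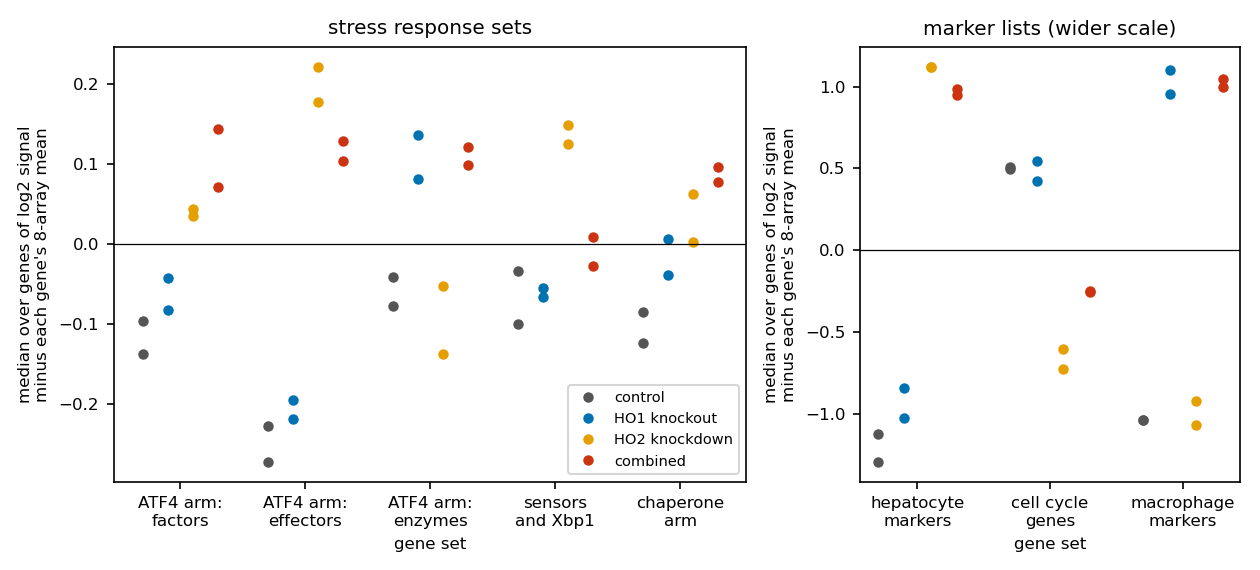
Median over each gene set of the log2 signal minus the gene's mean over arrays, 1 dot an array, with gene sets along the horizontal axis and the 4 groups in colour; marker lists are drawn on a wider scale. The effectors of the ATF4 arm run from -0.27 in a control array to 0.22 in an HO2 knockdown array, and the enzymes' median is above 0 on the 4 arrays of the HO1-/- groups.

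In the interaction, 6 of the 36 genes passed, or 16.7%, beside 12.2% of all genes and 21.4% of the 8150 bright genes. The hairpin difference was smaller or reversed in HO1-/- cells for Sesn2, 0.81 against 0.33; for Herpud1, 0.46 against 0.06; for Xbp1, 0.17 against -0.12; for Dnajb9, 0.54 against 0.28; and for Shmt2, 0.10 against -0.19. For Creld2 it changed sign the other way, -0.11 against 0.17, with neither difference called. Sesn2, Herpud1 and Xbp1 kept the call without each array in turn. The Hmox2 signal was 8.35 in HO2 knockdown and 9.29 in combined arrays, so the hairpin left more Hmox2 signal in HO1-/- cells, and the part of that in these 6 values was not tested.

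Other genes of the same pathways, from lists of known targets, did not all follow. Of 24 other ATF4 and CHOP targets, 6 were higher and 4 lower in HO2 knockdown and 5 and 5 in combined, with medians of 0.01 and -0.05, and 5 were higher and 1 lower in HO1 knockout. Ndrg1, a stress-responsive growth regulator, rose by 1.54 in HO2 knockdown and by 1.30 in combined, and Cth, the enzyme that makes cysteine from cystathionine, by 0.89 and 1.07. Slc7a11, the cystine importer and a standard ATF4 target, fell by 0.61 in HO2 knockdown and by 0.64 in combined. Aminoacyl-tRNA synthetases, many of which ATF4 raises, gave more lower than higher calls: of 18, 3 were higher and 7 lower in HO2 knockdown, and 2 higher and 8 lower in combined, while 0 were higher and 1 lower in HO1 knockout. Of the 8150 bright genes 7.95% were higher and 12.7% lower in HO1 knockout, 31.5% and 22.0% in HO2 knockdown, and 18.0% and 32.3% in combined. In that order 20.7%, 53.4% and 50.4% of them were called. The shares called were 25%, 41.7% and 41.7% for the other ATF4 and CHOP targets, and 5.56%, 55.6% and 55.6% for the synthetases. The lists were not matched to that background on brightness. Iars rose by 0.50 and Gars by 0.35 in HO2 knockdown, where Vars fell by 0.36.

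Of 14 genes for eIF2, its exchange factor, kinases and phosphatase, 3 were higher and 3 lower in HO2 knockdown, 0 and 3 in HO1 knockout, and 1 and 7 in combined. The shares called were 42.9%, 21.4% and 57.1%, near the 53.4%, 20.7% and 50.4% of the bright genes. Eif2ak1, the heme-regulated eIF2 kinase, averaged 10.56 in control, 10.48 in HO1 knockout, 10.96 in HO2 knockdown and 10.50 in combined arrays. Only HO2 knockdown stood apart, 0.40 ± 0.06 above control (adjusted p = 8.34e-05), and the interaction was -0.38 ± 0.09 (adjusted p = 0.00938). Impact, an inhibitor of the amino acid sensing kinase GCN2, fell by 0.49 in HO2 knockdown and by 0.76 in combined.

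Among 36 other ATF6 and XBP1 targets and ER folding genes, 7 were higher and 0 lower in HO1 knockout, 16 and 6 in HO2 knockdown, and 14 and 8 in combined. The shares called were 19.4%, 61.1% and 61.1%, beside 20.7%, 53.4% and 50.4% of the bright genes. Creb3l3, which encodes the liver ER-bound factor CREBH, rose by 1.09 in HO2 knockdown, Os9, a lectin of ER-associated degradation, by 0.64, and Pdia5, an isomerase, by 0.56. In HO1 knockout Kdelr3, a retrieval receptor, rose by 0.32 and Serp1, a translocon protein, by 0.27. Of the genes of ER translocation, 0 of 20 were higher and 1 lower in HO1 knockout, 3 and 4 in HO2 knockdown, and 2 and 5 in combined. Of 18 cytosolic and mitochondrial chaperones, which belong to other stress responses, 0 were higher and 5 lower in HO1 knockout, 4 and 2 in HO2 knockdown, and 2 and 7 in combined. Beside the same background, the shares called were 5%, 35% and 35% for translocation, and 27.8%, 33.3% and 50% for these chaperones. Hspa4 fell by 0.37 in HO1 knockout and Trap1, the mitochondrial HSP90, by 0.60 in HO2 knockdown.

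The other marker lists gave mixed counts. Of 12 sinusoidal endothelial markers 4, 6 and 9 were higher and 0, 1 and 0 lower in HO1 knockout, HO2 knockdown and combined. Their summed signals were 11.15 on both control arrays, 12.26 on both HO1 knockout arrays, 11.47 to 11.50 in HO2 knockdown and 12.33 to 12.41 in combined arrays. In HO1 knockout the list's median difference was 0.18, while Fcgr2b differed by 3.18 and Stab1 by 2.20. Of 14 stellate cell and fibroblast markers 9 were lower in HO1 knockout, 3 in HO2 knockdown and 5 in combined, with 0, 4 and 2 higher. Of 11 neutrophil markers 3 were higher in HO1 knockout and 3 in combined, 2 were lower in HO2 knockdown, and 7 lay under the 25th percentile. Of the 8 B and plasma cell markers 0 were called in HO1 knockout, 2 in HO2 knockdown and 0 in combined. Of the 6 cholangiocyte markers 0, 2 and 2 were called. In combined against control Krt7 differed by 1.33 and Sox9 by -0.76. The macrophage list read higher in the HO1-/- groups, where Mthfd2, Psat1 and Asns read higher too. In the HO2 shRNA groups the hepatocyte list read higher and the cell cycle list lower, while Trib3, Ddit4 and Dnajb9 read higher. The part of these lists in the values of those genes was not tested.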

How the data were processed

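Total RNA of 8 samples of primary mouse hepatocytes, 2 in each of 4 groups, was measured on whole-transcript gene arrays, each from 300 ng of RNA (labels' protocols). The authors deposited log2 signals, 1 for each probe set, from RMA. Per the submitters' processing notes RMA was run with affy in R 2.15.0; which chip definition and genome build it used was not stated there. Of 34760 probe sets, 21640 with exactly 1 gene symbol in the platform table were used, and 1321 probe sets naming several genes and 11799 naming no gene were set aside. Where a gene had more than 1 probe set (954 genes) its brightest one stood for it, giving 19937 genes. Among the 36 genes described, 35 have 1 probe set and Pdia4 has 2.

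One limma model (3.58.1, in R 4.3.3) with a mean for each of the 4 groups took in the 8 arrays, with a mean-variance trend, 4 residual and 11.2 prior degrees of freedom. The two-sided p-values were adjusted over the whole table by the Benjamini-Hochberg method, and genes were called at an adjusted p under 0.05. The fit was tested on simulated data. The 36 genes, their roles, the further lists and the elements searched were chosen with earlier results of these data known, so no list was tested as a whole. Values on every array are given for Atf4, Ddit3, Xbp1 and Hspa5 and for the 3 genes of each role with the smallest p in any comparison. From the other lists, the 3 genes with the smallest p in a comparison could be named, and Eif2ak1, Hmox1 and Hmox2 besides. The alternatives were 2 other scalings, other variance models, filters and probe set rules, other thresholds, a block for the replicate number, and fits without 1 array. Promoter sequences came from RefSeq, assembly GRCm38.p6; 250 bases before each start were searched, and the bases after it were not used.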

Additional observations from a re-analysis of the deposited data

Results flagged for a closer look

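The difference that the HO2 shRNA made was tested against itself between the 2 genotypes, and 6 of the 36 genes differed by that test (limma, adjusted over all genes). Those 6 are 16.7% of the 36, beside 12.2% of all genes and 21.4% of the 8150 bright genes. The difference in HO1-/- cells minus that in HO1+/+ cells was -0.48 for Sesn2 (adjusted p = 0.00319), -0.40 for Herpud1 (adjusted p = 0.000521), -0.29 for Xbp1 (adjusted p = 0.00237), -0.29 for Shmt2 (adjusted p = 0.034), -0.25 for Dnajb9 (adjusted p = 0.0374) and 0.28 for Creld2 (adjusted p = 0.0477), on the log2 scale. Shmt2, Dnajb9 and Creld2 lost the call when single arrays were left out. Groups of 2 arrays were too small for a search for outlying samples.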

How the results depend on the processing

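Of 92 calls (a gene in a comparison), 51 were kept under every alternative run, including a threshold of 0.01 and leaving out each array in turn, and 57 under all alternatives other than those. The rest of the calls was lost in at least 1 alternative, 29 of them without the mean-variance trend, 16 with arrays centred on their medians, 13 after quantile normalization, 11 with array weights and 31 at 0.01, and the cause was not tested. The count of called genes in HO1 knockout against control went from 11 to 4 without the trend, 5 with array weights, 7 with arrays centred on their medians, 7 with only the groups compared and 4 at a threshold of 0.01. It ran from 5 to 10 when an array was left out, with 5 without control array 2 or either HO1 knockout array. Combined against HO1 knockout went from 15 to 9 at 0.01 and from 9 (without combined array 1) to 18 without single arrays. The interaction went from 6 to 2 without the trend, 3 at 0.01 and 11 at 0.1, and from 3 (without control array 1 or combined array 1) to 9 without single arrays. With single arrays left out, HO2 knockdown gave 14 to 19, combined against control 19 to 25, and combined against HO2 knockdown 11 to 17.

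Arm medians moved with the scaling. With arrays centred on their medians the ATF4 arm gave 0.048 in HO1 knockout, 0.168 in HO2 knockdown, 0.021 in combined against HO2 knockdown and -0.072 in the interaction, and the chaperone arm 0.152 in HO2 knockdown, -0.082 in combined against HO2 knockdown and -0.079 in the interaction. Quantile normalization gave the ATF4 arm 0.094, 0.065, 0.297 in combined against control, 0.106 in combined against HO1 knockout, 0.184 in combined against HO2 knockdown and 0.042 in the interaction, and the chaperone arm 0.028 in HO2 knockdown, 0.271 in combined against control, 0.050 in combined against HO2 knockdown and 0.027 in the interaction. The interaction medians of both arms, and that of the chaperone arm in combined against HO2 knockdown, thus have no settled sign. The mean of all probe sets turned Pdia4 to 0.145 in HO2 knockdown, 0.234 in combined against control and 0.072 in combined against HO1 knockout, and the chaperone arm median in HO2 knockdown to 0.132. With single arrays left out, in the order HO1 knockout, HO2 knockdown, combined against control, combined against HO1 knockout, combined against HO2 knockdown and interaction, the ATF4 arm median ran from 0.064 to 0.124, 0.10 to 0.137, 0.222 to 0.246, 0.080 to 0.095, 0.049 to 0.122 and -0.045 to 0.00080. The chaperone arm median ran from 0.091 to 0.140, 0.060 to 0.132, 0.220 to 0.259, 0.059 to 0.105, -0.031 to 0.016 and -0.066 to -0.006.

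With the replicate number as a block, 2 of the 92 calls were lost, Chac1 in HO1 knockout and Creld2 in the interaction. Deviations of same-numbered arrays from their group means correlated at -0.26 to 0.12. With 2 arrays a group these values cannot tell whether same-numbered samples were paired, and the labels do not say. With 2 arrays a group, differences of the size of the SE, 0.04 to 0.08, were not detectable.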
